A study of Mus musculus with 22 samples.

Results

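The genes described here are 6 CXC chemokines, Cxcl1, Cxcl2, Cxcl5, Cxcl10, Cxcl12 and Cxcl14, out of 12393 mouse genes with a probe of their own on the array. They were chosen by name as attractants of neutrophils, interferon-induced ligands and resident ligands of connective tissue. Cxcl1, Cxcl2, Cxcl5 and Cxcl10 had 1 probe each, and Cxcl12 and Cxcl14 had 2 each, which made 8 probes. Where a gene had 2 probes, the brighter on average across the 22 samples was read, and the second is given beside it.

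The study compared stretched with shortened loose subcutaneous connective tissue of the trunk within each animal, with the assignment randomized. All animals were male C57BL/6 mice of 19 to 24 g with no genetic change named, and their age was not given in the labels. In 7 animals this was done in vivo and in 4 others on tissue held ex vivo, here called explants, with a shortened and a stretched sample of each animal, 22 in all. The labels gave neither the force nor the duration, and they did not say how long an explant was kept.

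CXC chemokines are small secreted proteins that guide leukocytes by binding G-protein-coupled receptors. Cxcl1, Cxcl2 and Cxcl5 act on Cxcr2 and draw neutrophils to injured tissue, while Cxcl10, like Cxcl9 and Cxcl11, acts on Cxcr3 of activated T cells and NK cells. The genes of the neutrophil group and Cxcl10 are known targets of NF-kB, and Cxcl10 also of interferon. Cxcl12, the ligand of Cxcr4 and Ackr3, and Cxcl14 are made by stromal cells without inflammation, and loose connective tissue is a known source of Cxcl12.

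Cxcl1, Cxcl2, Cxcl5 and Cxcl10 lie in the chemokine cluster of chromosome 5, Cxcl12 on chromosome 6 and Cxcl14 on chromosome 13. In build GRCm38.p6 Cxcl5 spans 90759298 to 90761625, Cxcl1 90891245 to 90893121, Cxcl2 90903899 to 90905938 and Cxcl10 92346638 to 92348889. The 250 bases before the start were matched in RefSeq sequence of that build for 5 of the 6 genes, all but Cxcl5. Those of Cxcl1 (chr5:90890995-90891244, plus strand), Cxcl2 (chr5:90903649-90903898, plus) and Cxcl10 (chr5:92348890-92349139, minus) are shown because these genes were far higher ex vivo, and that of Cxcl12 (chr6:117168285-117168534, plus) because its difference was small. Capitals mark matches to the NF-kB consensus (kB motif, 10 letters) and to GAAANNGAAA, a repeated core of interferon-response elements, searched on both strands.
Cxcl1: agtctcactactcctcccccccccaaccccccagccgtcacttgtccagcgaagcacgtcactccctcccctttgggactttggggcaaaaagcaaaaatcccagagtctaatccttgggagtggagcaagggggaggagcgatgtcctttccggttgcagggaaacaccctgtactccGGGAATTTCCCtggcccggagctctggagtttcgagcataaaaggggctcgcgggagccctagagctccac
Cxcl2: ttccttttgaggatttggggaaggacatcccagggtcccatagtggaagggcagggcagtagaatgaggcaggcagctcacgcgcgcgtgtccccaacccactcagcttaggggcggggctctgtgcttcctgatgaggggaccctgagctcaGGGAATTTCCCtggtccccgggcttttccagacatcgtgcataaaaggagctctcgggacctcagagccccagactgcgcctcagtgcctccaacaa
Cxcl10: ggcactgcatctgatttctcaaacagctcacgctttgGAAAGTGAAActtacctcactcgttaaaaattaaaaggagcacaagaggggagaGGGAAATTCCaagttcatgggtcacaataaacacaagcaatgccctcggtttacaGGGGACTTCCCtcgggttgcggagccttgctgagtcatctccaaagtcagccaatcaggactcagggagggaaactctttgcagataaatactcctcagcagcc
Cxcl12: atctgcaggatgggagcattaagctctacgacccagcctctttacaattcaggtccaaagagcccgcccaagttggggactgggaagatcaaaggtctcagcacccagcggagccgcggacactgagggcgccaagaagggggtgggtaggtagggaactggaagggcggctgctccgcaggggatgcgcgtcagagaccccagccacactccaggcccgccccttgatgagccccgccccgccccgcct

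The windows of Cxcl1 and Cxcl2 held the same nearly palindromic stretch, in which 2 matches to the kB motif overlap by all but 1 base. Its outermost match began 71 bases before the start in Cxcl1 and 97 bases before it in Cxcl2. Cxcl10 held a kB match at 159 to 150 bases before the start, another overlapping pair of matches from 104 bases, and GAAAGTGAAA at 213 to 204 bases. Neither motif was found in the window of Cxcl12. The window of Cxcl14 (chr13:56296552-56296801, minus) lay inside the listed span of that gene, 56288643 to 56296811. It thus precedes a start within the gene, not the outer end of that span. It held GAAACAGAAA at 172 to 163 bases before that inner start and no kB match. Of 32851 windows of the same length, 7.3% held a kB match and 3.0% a match to GAAANNGAAA. The motifs were chosen after these sequences had been seen, and a match is a run of letters, not a shown binding site.

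The array signal was a log2 value in the authors' RMA scale, on which a difference of 1 is a doubling. The median over all probes was 7.29 to 7.42 in the in vivo samples and 6.85 to 6.90 in the ex vivo samples, so the settings looked normalized apart from each other. Differences between settings were therefore tested as deposited and are also given relative to the median difference of all probes, which was -0.38 in shortened and in stretched tissue. Setting, animals and array processing cannot be told apart here. The lower quartile of each array (5.08 to 5.22 in vivo, 4.68 to 4.81 ex vivo) served as a mark of the array floor. The reason was the median signal of 18 genes of other organs, 4.57 to 4.97 in vivo and 4.10 to 4.45 ex vivo. Only 10 of the 18 had a mean below this mark in each group. In shortened tissue in vivo Prm1, Pomc and Alb of that list had means of 6.71, 6.86 and 7.02. Those of Cxcl1, Cxcl2 and Cxcl10 were 6.36, 5.99 and 6.74, so a signal above the mark need not be expression. The labelled tissue was checked by its markers: the mean signal of 10 fibroblast markers was 12.1 to 12.54 in vivo and 10.93 to 11.51 ex vivo, while that of 8 keratinocyte markers was 5.12 to 6.15 and 4.87 to 5.13, with 4 of the 8 below the lower quartile in each group.

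Ex vivo, the signals of Cxcl1, Cxcl2, Cxcl5 and Cxcl10 were far higher than in vivo, in shortened and in stretched tissue alike. Among the 16173 and 16165 probes whose mean lay above the lower quartile in both settings, Cxcl1 ranked 2 by size in shortened and 2 in stretched tissue, Cxcl2 3 and 8, and Cxcl10 6 and 10. Cxcl5 was at the floor in vivo, so its difference is a lower bound and has no rank. The ranking was chosen after the data were seen. The in vivo means of Cxcl1, Cxcl2 and Cxcl10 lay within the range of the genes of other organs, so their sizes and fold ratios are uncertain. With the brighter probe Cxcl12 differed by far less, and Cxcl14 did not pass the test. The second probe of Cxcl12 was called lower and that of Cxcl14 higher in both kinds of tissue. Stretch changed none of the 6 genes beyond the test's threshold in either setting.

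Cxcl5, also called LIX, signals through Cxcr2 and was at the array floor in vivo. Its signal was 2.74, 2.85 and 3.15 (lowest, median and highest of 7) in shortened tissue and 2.69, 2.78 and 2.88 in stretched tissue. All 14 in vivo samples lay below their array's lower quartile, at the 2.1 to 4.4 percentile of their array. Ex vivo the signal was 12.17, 12.08, 12.15 and 11.80 in shortened tissue of animals 1 to 4 and 11.86, 12.30, 12.53 and 12.48 in stretched tissue. Every ex vivo sample lay far above every in vivo sample, and the lowest ex vivo value was 11.80. Since values under the floor give no size, in vivo values were raised to the lower quartile of their array, which was chosen after the data were seen. Cxcl5 was then higher ex vivo by at least 6.91 as deposited in shortened and 7.14 in stretched tissue (n = 7 and 4), or 7.29 and 7.53 relative to the median. The limma fit on the deposited values gave an adjusted p of 3.84e-14 and 2.16e-13.

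Cxcl1, known as KC in mice, was above the lower quartile of the array in every in vivo sample and varied between animals. In vivo it ranged from 5.67 through a median of 5.97 to 7.96 in shortened tissue, and from 5.45 through 6.21 to 8.62 in stretched tissue. Animal 4 had the highest value in both pieces. In the explants Cxcl1 reached 12.92, 13.02, 13.27 and 12.82 in shortened and 12.47, 12.66, 13.03 and 12.99 in stretched tissue. The settings did not overlap, with gaps of 4.86 and 3.85. In shortened tissue the difference was 6.65 ± 0.41 as deposited and 7.03 relative to the median, a 131-fold ratio (adjusted p = 2.23e-08). In stretched tissue it was 6.23 ± 0.46 and 6.62, a 98.1-fold ratio (adjusted p = 1.81e-07).

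Cxcl2, known as MIP-2 and also a Cxcr2 ligand, spread more than the other 5 genes in stretched tissue in vivo. Its signal there was 4.17, 6.24 and 8.48 (lowest, median and highest), against 4.87, 5.97 and 7.28 in shortened tissue, and 1 sample of each group lay below its array's lower quartile. Explants held 11.78, 11.84, 12.95 and 12.18 in shortened and 10.96, 11.35, 12.21 and 12.18 in stretched tissue. All explants were above all in vivo samples, by at least 4.50 in shortened and 2.48 in stretched tissue. The difference was 6.20 ± 0.40 as deposited and 6.58 relative to the median in shortened tissue (96-fold, adjusted p = 3.37e-08). It was 5.29 ± 0.68 and 5.67 in stretched tissue (51-fold, adjusted p = 1.87e-05).

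Cxcl10, also called IP-10, was near the middle of the array in vivo, at the 35.2 to 51.8 percentile. Shortened tissue had 6.39, 6.80 and 6.92 as its lowest, median and highest value in vivo, and stretched tissue 6.02, 7.05 and 7.52. The explants had 12.11, 12.28, 12.78 and 12.26 when shortened and 11.81, 12.04, 12.39 and 11.88 when stretched. No in vivo sample came near an explant, the gaps being 5.19 and 4.30. The difference was 5.62 ± 0.13 as deposited and 6.00 relative to the median in shortened tissue (64-fold, adjusted p = 1.47e-11). The stretched samples differed by 5.15 ± 0.26 and 5.53 (46.2-fold, adjusted p = 8.47e-09).

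**Figure D1:**
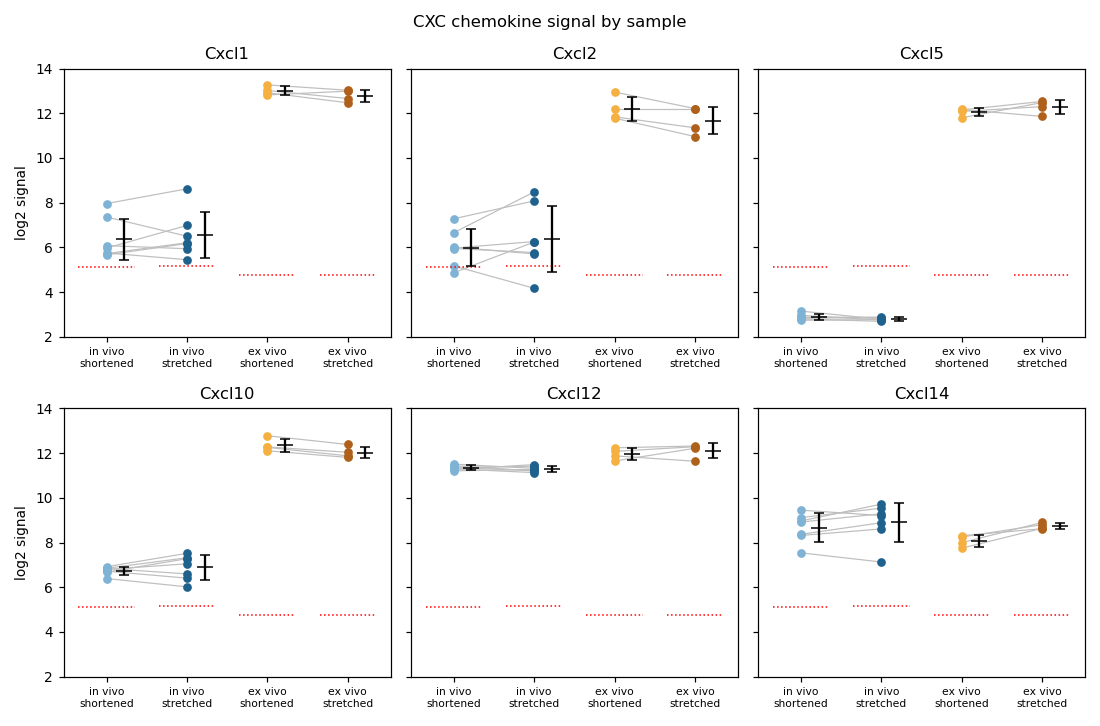
Log2 signal of the 6 chemokines in each of the 22 samples by group, with grey lines joining the pieces of an animal, black marks for the mean and SD, and a red dotted line at the group's mean lower quartile of the array. Cxcl1, Cxcl2, Cxcl5 and Cxcl10 of the explants sit far above the in vivo samples, and Cxcl5 lies under the red line in all 14 in vivo samples.

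Cxcl12, a stromal chemokine that holds Cxcr4-bearing cells in tissue, had a high signal in every sample. In vivo its signal was 11.21, 11.35 and 11.51 (lowest, median and highest) in shortened tissue and 11.13, 11.27 and 11.49 in stretched tissue. Ex vivo it was 12.24, 11.65, 12.08 and 11.88 in shortened tissue and 12.32, 12.22, 12.29 and 11.64 in stretched tissue. The groups did not overlap, but the gaps were only 0.14 and 0.15 on the deposited scale. The difference was 0.61 ± 0.10 as deposited and 1.00 relative to the median in shortened tissue (adjusted p = 0.000113), and 0.82 ± 0.12 and 1.21 in stretched tissue (adjusted p = 6.69e-05). The second Cxcl12 probe went the other way, by -1.47 ± 0.19 as deposited and -1.08 relative to the median in shortened tissue (adjusted p = 1.89e-05). In stretched tissue that probe differed by -1.54 ± 0.30 and -1.15 (adjusted p = 0.000628). With the mean of both probes Cxcl12 differed by -0.43 as deposited in shortened tissue (adjusted p = 0.00607) and by -0.36 in stretched tissue, which did not pass the test (adjusted p = 0.0952). The direction for Cxcl12 thus depends on the probe.

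Cxcl14, a stromal and epithelial chemokine that also draws monocyte-lineage cells, overlapped between the settings. Its in vivo signal was 7.54, 8.92 and 9.45 (lowest, median and highest) in shortened tissue and 7.13, 9.21 and 9.72 in stretched tissue. Ex vivo it was 8.0, 7.75, 8.31 and 8.25 in shortened tissue and 8.90, 8.64, 8.62 and 8.80 in stretched tissue. The difference between settings was -0.59 ± 0.30 as deposited and -0.21 relative to the median in shortened tissue (adjusted p = 0.0903). In stretched tissue it was -0.17 ± 0.39 and 0.21 (adjusted p = 0.704), so its sign turned with the scaling. The second probe was higher ex vivo, by 0.59 ± 0.17 as deposited in shortened (adjusted p = 0.00723) and 0.89 ± 0.23 in stretched tissue (adjusted p = 0.00422).

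In vivo, the brighter Cxcl14 probe was lower in animals 1 to 3 than in animals 4 to 7 in both pieces, without overlap. The second probe overlapped in shortened tissue, with 7.67 in animal 3 against 7.54 in animal 4 and 7.31 in animal 5. How many of all probes separate these animals was not counted. The difference between the 3′ and 5′ control probes of Gapdh, a measure of RNA integrity and labelling, also separated animals 1 to 3 from animals 4 to 7. It spanned 0.111 to 0.272 for the first 3 animals and 0.866 to 3.61 for the other 4. In the explants it was 0.05 to 0.17 when shortened and 0.06 to 0.91 when stretched. The part of this Gapdh difference in the result was not tested. With animals 4 to 7 alone, Cxcl14 was lower ex vivo by -1.04 as deposited in shortened (adjusted p = 0.000104) and -0.70 in stretched tissue (adjusted p = 0.000568). Without animal 1 alone it differed by -0.78 (adjusted p = 0.00625) and -0.47 (adjusted p = 0.0414). With animals 1 to 3 alone the difference was 0.00 in shortened tissue and 0.53 in stretched tissue. All of these subset values are of the brighter probe, and the second was not fitted in them. Animals 4 to 7 had the higher in vivo values of that probe, and animal 1 the lowest. Leaving out low in vivo samples moves the difference down by itself, so these fits are no test of the direction. In animals 4 to 7 the second probe had 7.31 to 7.95 in shortened tissue, against 7.91 to 8.38 in the explants. In stretched tissue it had 7.85 to 8.16, against 8.41 to 8.93.

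Of the 6 genes, 5 were called higher ex vivo in shortened and 5 in stretched tissue, at an adjusted p under 0.05 (limma, n = 7 and 4). Of all probes, 17.4% were called higher and 55.7% lower in shortened tissue (73.1% in all), and 16.4% higher and 54.2% lower in stretched tissue (70.6% in all). The median difference relative to all probes was 6.29 over the 6 genes in shortened and 5.60 in stretched tissue, against -0.09 and -0.08 over all genes, and it was the same with Cxcl5 at its bound. The balance of calls over the array moved with the scaling: 3943 probes were higher and 12607 lower in shortened tissue as deposited, 7405 and 7795 after quantile normalization of all samples together, and 8352 and 6690 with each sample centred on its median. In stretched tissue these were 3719 and 12260, 7200 and 7338, and 7950 and 6422. The count of 5 higher genes held under all 3 scalings with the brighter probe of each gene. It includes Cxcl12, whose second probe was called lower in both kinds of tissue under all 3 scalings. With the mean of both probes Cxcl12 was not called higher in either kind of tissue. The count leaves out Cxcl14, whose second probe was called higher in both kinds of tissue under all 3 scalings.

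**Figure D2:**
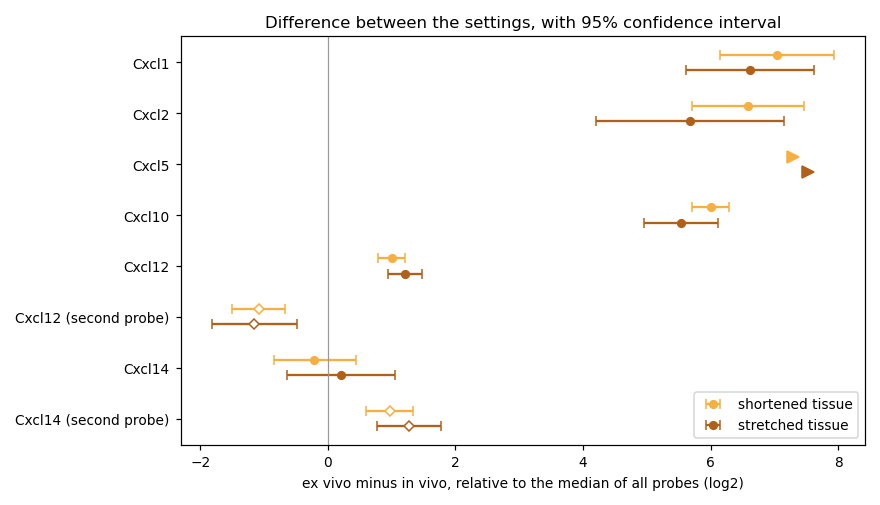
Ex vivo minus in vivo difference of log2 signal relative to the median of all probes, with the 95% confidence interval, for the 6 chemokines and the second probes (open marks) in shortened and stretched tissue. Triangles mark Cxcl5 at its lower bound, with in vivo values raised to the lower quartile, and the Cxcl12 probes lie on opposite sides of 0.

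Stretch was then compared with shortening within animals. In vivo, Cxcl1, Cxcl2 and Cxcl10 were higher in the stretched piece in the same 4 of 7 animals (1, 3, 4 and 6) and lower in animals 2, 5 and 7. For Cxcl2 the differences of animals 1 to 7 were 0.29, -1.01, 1.82, 0.80, -0.30, 1.37 and -0.18. They spread over both sides of 0, with a mean of 0.40 ± 0.30 (SE, n = 7 pairs, 95% interval -0.26 to 1.06, adjusted p = 0.495). Cxcl1 gave 0.49, -0.30, 1.01, 0.67, -0.86, 0.49 and -0.14 (mean 0.20 ± 0.20, interval -0.24 to 0.63, adjusted p = 0.628). Cxcl10 gave 0.60, -0.31, 0.59, 0.47, -0.24, 0.25 and -0.37 (mean 0.14 ± 0.14, interval -0.16 to 0.45, adjusted p = 0.613). In each of the 3 genes the sign differed between animals and the interval included 0.

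The other members did not pass the test in vivo either. Cxcl14 was higher in the stretched piece in 5 of 7 animals, by 0.24 ± 0.13 on average (interval -0.04 to 0.53, adjusted p = 0.328), and its second probe gave 0.19 ± 0.10. Cxcl12 differed by -0.06 ± 0.06 (interval -0.18 to 0.07, adjusted p = 0.623) and its second probe by 0.31 ± 0.14 (adjusted p = 0.25). Cxcl5, at the floor in both pieces, differed by -0.09 ± 0.06 (adjusted p = 0.412), which says nothing of its level. None of the 6 genes was called, nor was any of the 22626 probes (0% called by limma, with 4373 probes at an unadjusted p under 0.05).

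Ex vivo, Cxcl14 was higher and Cxcl10 lower in the stretched piece in all 4 animals, although neither passed adjustment. The Cxcl14 differences of animals 1 to 4 were 0.89, 0.89, 0.32 and 0.54, and the stretched samples did not overlap the shortened ones. How many of all probes had the same sign in all 4 animals, or no overlap, was not counted. The mean was 0.66 ± 0.13 (SE, n = 4 pairs, interval 0.36 to 0.96, adjusted p = 0.352), and the second probe gave 0.49 ± 0.12 (adjusted p = 0.363), also higher in 4 of 4. The Cxcl10 differences were -0.30, -0.25, -0.39 and -0.38, close to each other, with a mean of -0.33 ± 0.06 (interval -0.47 to -0.19, adjusted p = 0.352).

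Cxcl2 gave -0.82, -0.49, -0.74 and 0.00 in the explants, the last just below 0 (mean -0.51 ± 0.14, interval -0.84 to -0.19, adjusted p = 0.363). Cxcl1 gave -0.45, -0.36, -0.25 and 0.17, lower in 3 of 4 (mean -0.22 ± 0.10, interval -0.47 to 0.03, adjusted p = 0.49). Cxcl5 gave -0.31, 0.23, 0.38 and 0.67 (mean 0.25 ± 0.15, adjusted p = 0.583) and Cxcl12 0.08, 0.57, 0.21 and -0.24 (mean 0.15 ± 0.13, adjusted p = 0.692). Both were higher in the stretched piece in 3 of 4 animals. As in vivo, limma called no probe (0%, with 2508 at an unadjusted p under 0.05).

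Skeletal muscle markers differed between the pieces of some animals. All 17 measured had a higher mean in stretched tissue in each setting, with medians of 2.19 in vivo and 2.51 ex vivo, and none was called. Their mean signal spanned 5.25 to 11.74 in shortened and 5.18 to 12.35 in stretched samples in vivo. Among explants it spanned 5.08 to 5.99 when shortened and 4.95 to 11.37 when stretched. The explants of animals 3 and 4 went from 5.12 to 10.05 and from 5.99 to 11.37, while those of animals 1 and 2 went from 5.39 to 4.95 and from 5.08 to 5.25. In vivo the mean was lower in the stretched piece of animals 1 and 4. With that mean as a covariate the ex vivo differences were 0.88 ± 0.13 for Cxcl14, -0.28 ± 0.08 for Cxcl10, -0.67 ± 0.18 for Cxcl2 and -0.40 ± 0.11 for Cxcl1. That of Cxcl5 went to -0.04 ± 0.13. In bulk tissue, fewer cells of a type and less RNA per cell cannot be told apart.

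**Figure D3:**
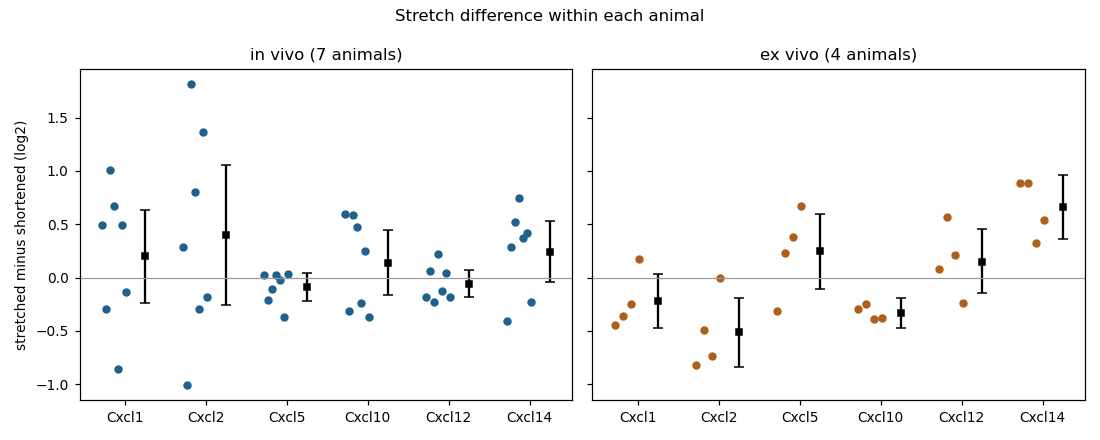
Stretched minus shortened log2 signal in each animal (points) with the mean and 95% confidence interval (black), in the 7 in vivo animals (left) and the 4 of the explants (right). Ex vivo all 4 animals lie above 0 for Cxcl14 and below 0 for Cxcl10, while in vivo Cxcl1, Cxcl2 and Cxcl10 scatter on both sides of 0.

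Whether stretch acted differently in the settings was tested as an interaction. The ex vivo effect minus the in vivo effect was -0.91 ± 0.44 for Cxcl2 (adjusted p = 0.35), -0.47 ± 0.20 for Cxcl10 (adjusted p = 0.288) and -0.41 ± 0.30 for Cxcl1 (adjusted p = 0.542). It was 0.42 ± 0.21 for Cxcl14 (adjusted p = 0.362), 0.34 ± 0.16 for Cxcl5 (adjusted p = 0.338) and 0.21 ± 0.13 for Cxcl12 (adjusted p = 0.479). None of the 6 genes was called, against 0.177% of all probes (40 probes, of which 11 or 0.0486% of all were higher and 29 or 0.128% lower). That count over all probes rested on single animals, as it was 663 without ex vivo animal 1, 331 without ex vivo animal 4 and 0 to 8 without any of the others.

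The other CXC ligands were read from a list of 9, of which 8 were measured. Of all probes, 17.4% were called higher and 55.7% lower in shortened tissue as deposited, and 16.4% and 54.2% in stretched tissue. The counts of this list and of those that follow are to be read against these shares, which moved with the scaling. In both kinds of tissue 4 of the 8 ligands were called higher ex vivo and 4 lower as deposited. After quantile normalization 2 to 3 were called lower in place of 4, and 1 to 3 with median centring. The other Cxcr3 ligands were among the higher ones: Cxcl9 differed by 5.25 ± 0.53 in shortened and 4.01 ± 0.40 in stretched tissue relative to the median (adjusted p = 3.58e-06 and 5.54e-06), and Cxcl11 by 4.02 ± 0.23 and 3.28 ± 0.22 (adjusted p = 3.13e-08 and 2.31e-07). The in vivo means of Cxcl11 were 5.15 and 5.04, at the array floor, so its sizes are uncertain. Cxcl16, a membrane-bound ligand of Cxcr6, differed by 1.37 ± 0.11 and 1.28 ± 0.10. Pf4, the platelet factor, was lower ex vivo by -1.18 ± 0.19 and -0.59 ± 0.22. Stretch called none of these 8 in either setting. Cxcl9 was 0.98 ± 0.21 higher in stretched tissue in vivo (adjusted p = 0.172) and -0.26 ± 0.09 ex vivo (adjusted p = 0.405), and the difference between these was -1.24 ± 0.31 (adjusted p = 0.0975). Cxcl11 differed by -0.84 ± 0.20 with stretch ex vivo (adjusted p = 0.363).

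Among receptors, 7 of 8 listed were measured. Cxcr4, the receptor of Cxcl12, was higher ex vivo by 3.07 ± 0.18 in shortened and 3.19 ± 0.23 in stretched tissue relative to the median (adjusted p = 3.82e-08 and 3.38e-07). The in vivo means of Cxcr4 were 5.20 and 5.17, next to the mean lower quartiles of 5.14 and 5.15, so its sizes are uncertain. Cxcr3, the receptor of Cxcl9, Cxcl10 and Cxcl11, was lower by -2.68 ± 0.10 and -2.57 ± 0.13 (adjusted p = 1.23e-10 and 2.42e-09). Ackr1, a scavenger of chemokines on venules and red cells, was lower by -1.56 ± 0.18 and -1.45 ± 0.17. Cxcr2, the receptor of Cxcl1, Cxcl2 and Cxcl5, is named here after its values were seen: its group means were 4.66 and 4.69 in vivo and 4.74 and 4.79 ex vivo, near the array floor, and it was not called (adjusted p = 0.485 and 0.41). In all, 2 receptors were called higher and 3 lower in shortened tissue as deposited and relative to the median, and 4 higher and 2 lower after either other scaling.

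**Figure D4:**
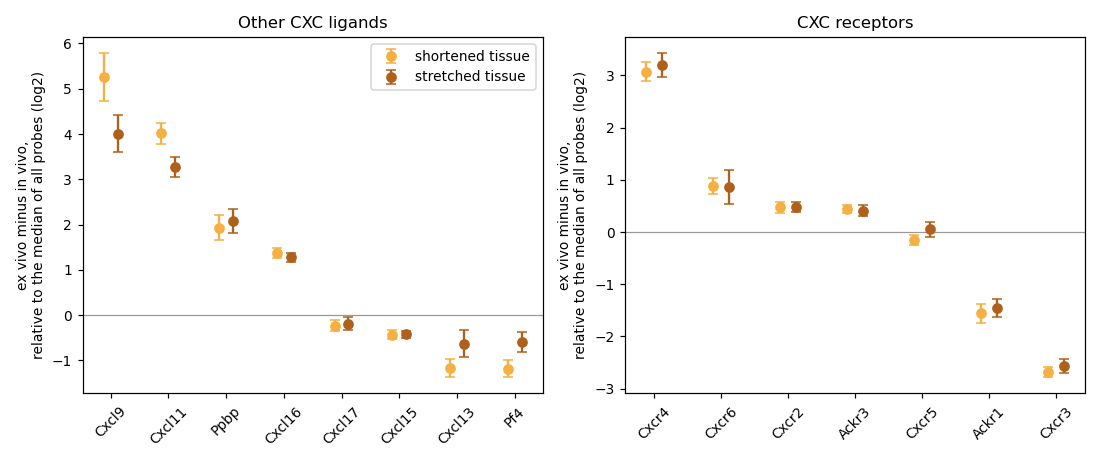
Ex vivo minus in vivo difference of log2 signal relative to the median of all probes, with its SE, for the 8 other CXC ligands (left) and 7 receptors (right) in shortened and stretched tissue. Cxcl15, Cxcr2 and Cxcr5 were under the array floor in vivo, and Cxcl11, Cxcr4 and Cxcr6 were close to it. Cxcl9 and Cxcl11 are the highest ligands, Cxcr4 the highest receptor and Cxcr3 the lowest.

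Genes that act upstream of these chemokines were read from 3 lists. Of 16 cytokines and receptors that can induce them, 7 were called higher and 6 lower in shortened tissue, and 7 and 7 in stretched tissue, as deposited. After quantile normalization the counts were 9 and 4 in each, and with median centring 10 and 3, and 10 and 4. Tnf differed by 1.66 ± 0.11 and 1.87 ± 0.17 relative to the median. Ifnb1, interferon beta, was under the floor in vivo (means 4.68 and 4.47) and had means of 7.34 and 6.42 ex vivo, a difference of at least 2.59 and 1.66. Ifngr1, a chain of the interferon gamma receptor, was lower by -1.11 ± 0.07 and -0.85 ± 0.09, and Il17a by -0.68 ± 0.12 and -0.61 ± 0.10, with Il17a under the floor ex vivo. Each of these 4 passed the test in both kinds of tissue.

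Of 14 measured genes of NF-kB signalling and mRNA decay, 12 were called higher ex vivo in each kind of tissue under all 3 scalings, with a median of 1.37 in shortened and 1.5 in stretched tissue relative to all probes. Birc3, an inhibitor of apoptosis in TNF receptor complexes, differed by 1.97 ± 0.10 and 1.97 ± 0.13. Icam1, the endothelial ligand of leukocyte integrins, differed by 2.63 ± 0.24 and 2.33 ± 0.16, and Zc3h12a, which degrades cytokine mRNA, by 1.88 ± 0.12 and 2.03 ± 0.13. All 12 measured interferon-response genes were called higher in both kinds of tissue under all 3 scalings (medians 2.21 and 2.26). Over all probes the share called higher as deposited was 17.4% in shortened and 16.4% in stretched tissue, and larger after either other scaling. Ifit3 differed by 2.98 ± 0.09 and 3.16 ± 0.08, and Rsad2, an antiviral enzyme, by 2.94 ± 0.09 and 2.84 ± 0.08. Of the 6 proteases that can cut chemokines, Dpp4, which inactivates Cxcl10 and Cxcl12, was lower by -2.64 ± 0.13 and -2.21 ± 0.17, and Mmp9 by -3.67 ± 0.19 and -3.35 ± 0.36. Stretch called no gene of these lists in either setting. Of the 12 interferon-response genes 11 were lower in stretched tissue in vivo and 11 ex vivo, with medians of -0.19 and -0.18 relative to all probes. Of all 12393 genes, 6073 were lower in vivo and 5962 ex vivo on that scale. The 12 genes share arrays and animals, and they were not tested as a set.

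Markers of cells that could carry or answer these chemokines also differed between the settings. Of 11 measured neutrophil markers, 3 were called higher and 4 lower in shortened tissue as deposited, and 7 and 2 after either other scaling. Their mean signal per sample in vivo was 5.10 to 5.57 when shortened and 5.21 to 5.71 when stretched, with 7 and 6 of the 11 below the lower quartile. Among explants it was 5.69 to 6.09 and 5.57 to 5.96, with 6 and 4 of the 11 below it. Lcn2, a neutrophil granule protein that other cells also make in inflammation, was under the floor in vivo (means 4.70 and 5.09) and had means of 10.94 and 11.20 ex vivo, a difference of at least 6.17 and 6.27 relative to the median. Ltf and Elane, granule proteins, were called lower in shortened tissue, and both were under the floor ex vivo. Of 10 macrophage markers 8 were lower ex vivo in both kinds of tissue, with medians of -2.74 and -2.90 and sample means of 11.38 to 12.02 in vivo against 8.08 to 9.54 ex vivo. All 7 measured lymphocyte markers and 8 of 10 fibroblast markers were lower too, the latter 7 of 10 with median centring. Ex vivo, 4 of the 7 lymphocyte markers lay below the lower quartile in shortened and 5 in stretched tissue, so their sizes are uncertain. Of all probes, 55.7% were called lower in shortened and 54.2% in stretched tissue, against which these counts are to be read. The part of these markers in the chemokine differences was not tested.

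Within groups, Cxcl1, Cxcl2 and Cxcl10 varied together. Likeness was read as Pearson's r of deviations from the group mean over 22 samples, as a description, since the points share arrays and animals. It was 0.746 between Cxcl1 and Cxcl2, 0.685 between Cxcl2 and Cxcl10 and 0.487 between Cxcl1 and Cxcl10. Without the 2 samples in which the deviation of the first-named gene of each pair (Cxcl10 in the pair with Cxcl2) lay farthest from its median, it was 0.654, 0.663 and 0.472. Cxcl5, at the floor in vivo, could be read in the 8 explants alone, where r was 0.846 with Cxcl1, 0.636 with Cxcl2 and 0.458 with Cxcl10. Cxcl12 had an r of 0.067 with Cxcl1 and 0.009 with Cxcl2.

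Of all genes, Cxcl1 was most like Il6, an inflammatory cytokine (r = 0.945, 0.868 without the 2 farthest samples), although the in vivo medians of Il6, 4.86 and 4.82, were under the lower quartile. Next came Socs3 (0.887), a feedback inhibitor of cytokine signalling, and Ptgs2 (0.879), the inducible cyclooxygenase. Over the explants alone r with Cxcl1 was 0.839 for Il6, 0.405 for Socs3 and 0.855 for Ptgs2. Cxcl2 was most like Atf3 (0.889), a stress-induced transcription factor, Nfkbiz (0.886), a nuclear partner of NF-kB, and Socs3 (0.868). Cxcl10 had Nfkbiz (0.740), Zc3h10 (0.724) and Cd14 (0.708), the co-receptor for lipopolysaccharide. The likeness to Cd14 held within groups only, as r over all samples without removing group means was -0.908. Between settings Cd14 was lower ex vivo, by -1.32 in shortened and -0.95 in stretched tissue relative to the median. For Cxcl5 the same rule gave Bdkrb1, Fgf23 and Sox9, but 14 of its 22 values lay under the floor, so no likeness is read from them. Cxcl12 was most like Tfec (0.890), Fcgr4 (0.872) and Ifitm1 (0.860), all higher over the explants (0.936 to 0.971) than in vivo (0.445 to 0.594). Without the 2 samples farthest for Cxcl12 these were 0.757, 0.701 and 0.772 over all groups. In ex vivo stretched animal 4 all lay below their group mean, Cxcl12 by -0.48, Tfec by -1.49, Fcgr4 by -1.67 and Ifitm1 by -0.39.

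Cxcl14 was most like Slc35a1 (0.959), Gde1 (0.952) and Ywhag (0.952). These values came from the in vivo samples, with 0.971 to 0.985, where animals 1 to 3 lay apart from animals 4 to 7. Over the explants they were 0.655 for Slc35a1, 0.460 for Gde1 and -0.310 for Ywhag.

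**Figure D5:**
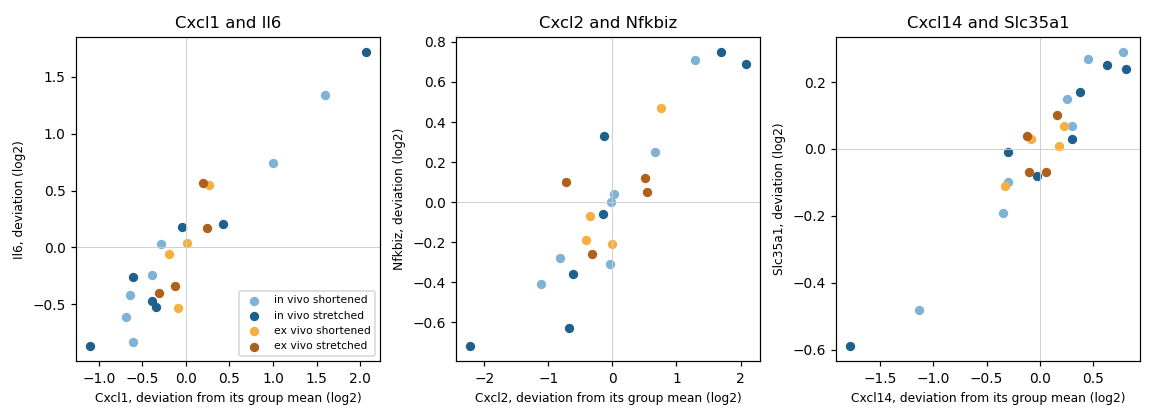
Deviation of log2 signal from the group mean in 22 samples, for Cxcl1 against Il6, Cxcl2 against Nfkbiz and Cxcl14 against Slc35a1, coloured by group. The in vivo samples spread along a line in each panel (r = 0.945, 0.886 and 0.959 over all samples), and the explants take up a narrower range.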

How the data were processed

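RNA of 22 samples was extracted with Tri-Reagent and hybridised as biotin-labelled cRNA, per the labels' protocols. The authors made the deposited log2 signals with RMA and the affy package, per the submitters' processing notes, with versions not given in the sources used here. RMA corrects background, normalizes quantiles and summarises each probe set, and shrinks differences of dim probes. Values ran from 1.89 to 14.4. No depth exists for arrays, so the number of samples limits the precision.

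The array has 22690 probes, and 22626 were tested once 64 controls were removed. GEO's platform annotation gave 1 gene symbol for 20380, several for 691 and none for 1555. For genes with several probes the one with the highest mean was read, which gave 12393 genes. Groups came from sample titles. Equal numbers within a setting were read as the same animal, because the design text describes a within-animal comparison. Deviations of same-numbered samples correlated with r of 0.385 to 0.867 in vivo and 0.109 to 0.284 ex vivo. A shortened sample correlated best with the stretched sample of its own number in 5 of 7 animals in vivo and 2 of 4 ex vivo. The pairing of the explants thus rests mainly on the titles and the design text.

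Tests used limma 3.58.1 in R 4.3.3 (lmFit, eBayes with a mean-variance trend), with p-values adjusted by Benjamini-Hochberg across the 22626 probes, called under 0.05. Stretch was fitted with the animal as a block, the interaction on all 22 samples, and settings without a block. P-values between settings belong to the differences as deposited. The fits were tested on simulated data with known changes.

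The 6 genes and the lists of pathway and marker genes were chosen with earlier results of these data known. All 6 genes are named in each comparison, and of each list at most 4 genes with the smallest p, except where said, besides the 3 genes most like each member. Alternatives were scaling, probe choice, a filter on a mean signal of at least 6, no trend, muscle markers as a covariate, subsets of animals, no block, and each animal left out. Promoters are RefSeq sequence of GRCm38.p6.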

Additional observations from a re-analysis of the deposited data

Results flagged for a closer look

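In 24 groups of values (6 genes in 4 groups) the highest and lowest samples were compared with the rest by Dixon's criterion, and 2 stood apart, where chance alone gives about 1 in 20 groups. The Cxcl12 signal of ex vivo stretched animal 4 was 11.64, against 12.22 to 12.32 in the other 3 samples. The Cxcl14 signal of in vivo stretched animal 1 was 7.13, against 8.61 to 9.72 in the other 6. That animal's shortened piece was also the lowest of its group for Cxcl14, at 7.54. No explanation was tested for either.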

How the results depend on the processing

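Of 540 values for the 6 genes under alternative settings, 525 kept their sign and their side of the threshold, 4 passed it where they had not (Cxcl14 between settings, without in vivo animal 1 or with animals 4 to 7 alone) and 11 changed sign. The sign changes were Cxcl12 with the mean of its probes (0.13 for stretch in vivo, -0.43 and -0.36 between settings in shortened and stretched tissue, where the call was lost in stretched tissue), Cxcl5 for stretch ex vivo with muscle as a covariate (-0.04) and without the pairs most unequal in muscle (-0.04), and Cxcl14 between settings in stretched tissue. That Cxcl14 difference was 0.27 after quantile normalization, 0.27 with median centring, 0.36 with the mean of its probes, 0.09 with muscle as a covariate, 0.06 without the pairs most unequal in muscle and 0.53 with in vivo animals 1 to 3. The cause was not tested. The differences of Cxcl1, Cxcl2, Cxcl5 and Cxcl10 between settings passed the threshold under every alternative run.

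Stretch called 0 probes in each setting under every alternative. Without the replicate block, which drops the pairing by animal, it called 0 in each setting (1080 and 2173 probes at an unadjusted p under 0.05) and 3 for the interaction, in place of 40. The interaction count was 5 after quantile normalization, 74 over probes with a mean of at least 6, 4 without the trend, 8 with muscle as a covariate, 9 without the pairs most unequal in muscle, 1 with in vivo animals 1 to 3, 0 with animals 4 to 7, and 0 to 663 with an animal left out. Between settings, 16550 probes in shortened and 15979 in stretched tissue became 11033 and 10442 over probes with a mean of at least 6, and 9351 and 9120 with 1 value per gene, both of which test fewer features. In vivo signals at the floor give only a lower bound for Cxcl5.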
